A study of Pyrus ussuriensis with 15 samples.

Results

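Adventitious roots of *Pyrus ussuriensis* Maxim, an Asian pear, were compared on day 12 and on day 6 of root development, 3 libraries against 3, chosen by the day in their labels. These are 6 of the 15 messenger RNA libraries of a course that also holds day 0, day 3 and day 9. On both days the material came from adventitious buds that had been subcultured for 25 days and then moved to a rooting medium, an MS salt medium of reduced strength at pH 6. It held 30 g/L sucrose, 7.5 g agar and the auxin indole-3-butyric acid (IBA) at 0.5 mg/L. The auxin was thus shared by both groups, no group without it was analysed here, and root age and time on the auxin cannot be told apart. The labels name the same tissue, adventitious roots, on every day, and say neither whether shoots were pooled nor whether the replicates came from separate cultures. The p-values therefore rest on how far the libraries of a day differ, and that difference may be only technical.

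Adventitious roots form from cells of a stem or shoot that return to division, build a primordium and then push out as a root with its own vascular strand. An auxin such as IBA starts this course, and later steps, such as outgrowth and the build-up of root tissue, follow as the cells differentiate. In bulk tissue of this kind, fewer cells of a type and less RNA per cell cannot be told apart. The deposited table gives each gene model an ID, a position and a length and pairs no ID with a name or a description, so the labelled tissue could not be checked against marker genes. Models are therefore described by level, course, structure and position, and by ID for 2 that rose and 2 that fell.

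The 6 libraries held 13177097 to 17878524 counts. The day 12 libraries were close to each other, with a Pearson correlation of log2 CPM (CPM, counts after division by library size, scaled by the trimmed mean of M-values) of 0.983 to 0.985 across models. The day 6 libraries were less alike, at 0.939 to 0.948, and the median SD of a model was 0.133 on the log2 scale at day 12 and 0.301 at day 6. Day 6 replicate 2 correlated with the day 3 libraries at 0.973 to 0.977, replicate 1 at 0.945 to 0.948 and replicate 3 at 0.931 to 0.939. Day 12 libraries correlated with day 6 libraries at 0.908 to 0.927, with day 9 libraries at 0.880 to 0.909 and with day 0 libraries at 0.897 to 0.917, all across genes, which are not independent replicates.

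Day 12 differed from day 6 in 6228 of 29134 gene models tested (21.4%), by edgeR's quasi-likelihood test at a Benjamini-Hochberg adjusted p under 0.05. Of these, 3100 were higher at day 12 (10.6% of those tested) and 3128 lower (10.7%). At least a 2-fold difference was seen for 1429 models that rose (4.90%) and 1790 that fell (6.14%). At least a 4-fold difference was seen for 542 that rose and 777 that fell, and a 16-fold one for 116 and 139. The median log2 change over all tested models was -0.0101. The day 12 libraries all lay above the day 6 libraries in 5553 models (19.1%) and all below them in 4680 (16.1%). Among the models called at 2-fold or more, this held for 1421 of the 1429 rises and 1643 of the 1790 falls.

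**Figure D1:**
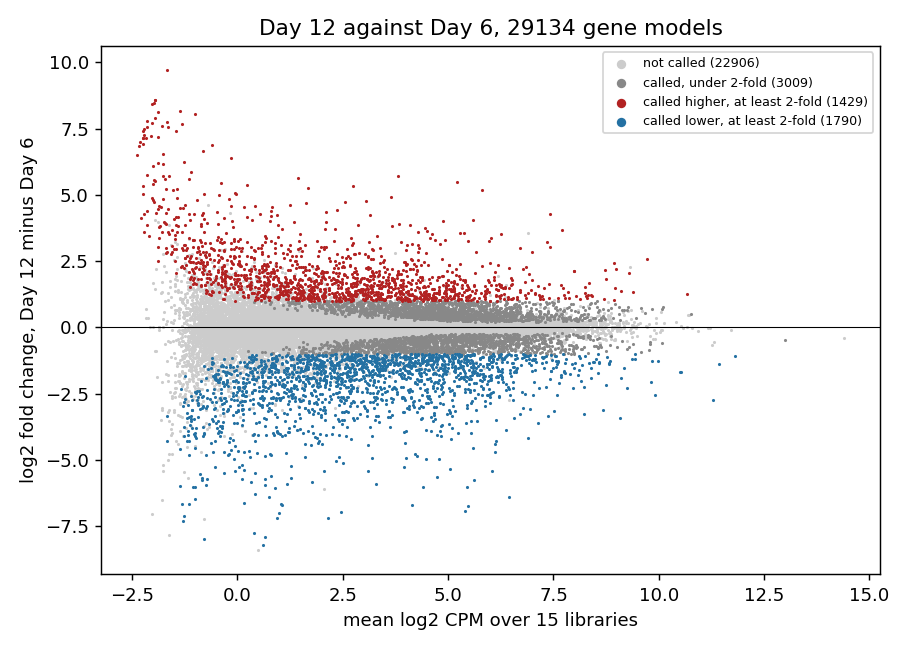
Each point is 1 of 29134 gene models, placed by its mean log2 CPM over the 15 libraries (horizontal axis) and its log2 fold change, day 12 minus day 6 (vertical axis). Red points are the 1429 models called higher at 2-fold or more, blue points the 1790 called lower, dark grey points smaller called changes and light grey points models that were not called; the largest rises lie among weakly expressed models.

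The size of the set depended on the libraries in the fit. With only day 6 and day 12 in the fit, 1926 models were higher and 1872 lower, 3798 in all, and 3642 of these were among the 6228. The 3128 falls dropped to 2085, 2031 and 2044 when day 12 replicate 1, 2 or 3 was omitted. In the same fits the 3100 rises dropped to 2151, 2160 and 2313.

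The called models took up a different part of the messenger pool on the 2 days. The 1429 models that rose at 2-fold or more held 8.70%, 8.66% and 8.65% of the tested counts in day 12 replicates 1, 2 and 3, against 2.67%, 2.42% and 2.41% in day 6 replicates 1, 2 and 3. The 1790 models that fell held 3.00%, 3.00% and 2.92% in the day 12 libraries, against 8.88%, 9.98% and 10.5% in the day 6 libraries. These shares describe models chosen on the same contrast and carry no test. On the days that the contrast did not use, the rising models held 2.67% to 2.84% at day 0, 2.35% to 2.64% at day 3 and 3.08% to 3.32% at day 9. The falling models held 7.22% to 7.41% at day 0, 9.29% to 9.67% at day 3 and 8.80% to 9.93% at day 9. For both sets the shares on the other 3 days lay nearer to those of day 6 than to those of day 12.

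In many of the called models day 12 stood apart from every other day. In 1079 of the 1429 rising models, all 3 day 12 libraries lay above all 12 other libraries of the course, as they did in 8.20% of all tested models. In 978 of the 1790 falling models they lay below all 12 others, against 5.82% of all tested models. The 3 day 6 libraries lay below all 12 others in 10 rising models and above them in 26 falling models, where the shares over all tested models were 0.185% and 0.199%. The models were chosen for a difference between day 12 and day 6, and the day 6 libraries were more spread, so the counts of the 2 days are not a like comparison. Relative to the day 6 mean, the rising models had a median log2 difference of 0.396 to 0.458 in the day 9 libraries and 1.68 to 1.74 in the day 12 libraries. The falling models stood at -0.695 to -0.602 in the day 0 libraries, -0.126 to -0.0281 in the day 3 libraries, -0.301 to -0.0346 in the day 9 libraries and -1.64 to -1.57 in the day 12 libraries. All of these differences share the day 6 libraries. Among the rising models, 47 had a day 0 mean at or above their day 12 mean, and 172 of the falling models had a day 0 mean at or below it.

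Both sets spanned weak and strong expression. Of the 1429 rising models, 403 had a mean under 1 CPM at day 6, and 162 had a mean over 100 CPM at day 12. Of the 1790 falling models, 541 had a mean under 1 CPM at day 12, and 205 had a mean over 100 CPM at day 6. For 469 of the falls (26.2%), the mean of the day 6 libraries came within 2-fold of the day 12 mean once the highest day 6 library was left out. That library was replicate 3 in 227 of them, replicate 2 in 150 and replicate 1 in 92. The count for the rises, with the lowest day 6 library left out, was 232 (16.2%), with 84, 77 and 71 for replicates 3, 2 and 1. Leaving out the lowest library can change a mean less than leaving out the highest can. The counts for falls and rises are therefore not a like comparison. Among falls, day 6 replicate 1 was the library nearest to day 12 in 905 models (50.6%) and replicate 2 in 309 (17.3%), whereas among all tested models these shares were 36.0% and 30.4%.

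Pbr009405.1 had the largest rise of the models that met the rule for naming, which asked for a mean log2 CPM of at least 1 and day 12 libraries all beyond the day 6 libraries. It lies on the minus strand of scaffold16.0, from 413783 to 416681, with a coding length of 1680 bases. It had 210, 203 and 208 CPM in day 12 replicates 1, 2 and 3, against 6.13, 4.04 and 2.03 CPM in day 6 replicates 1, 2 and 3. All day 12 libraries were high and close to each other, the day 6 libraries low, and the groups did not overlap. The log2 fold change was 5.69 ± 0.388 (SE, adjusted p = 5.15e-07, edgeR). Its means on the days between and before were 8.27 ± 0.647 CPM at day 0, 6.59 ± 2.25 CPM at day 3 and 13.4 ± 5.25 CPM at day 9 (SD, n = 3 each). At day 9 it was already higher than at day 6, by a log2 fold change of 1.76 (adjusted p = 0.00165, edgeR), but still far below day 12.

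Pbr039060.1 gained the most CPM. This model lies on the minus strand of scaffold828.0, from 80412 to 83762, with a coding length of 864 bases. It had 3334, 3456 and 3221 CPM in day 12 replicates 1, 2 and 3, against 427, 692 and 579.8 CPM in day 6 replicates 1, 2 and 3. The groups were far apart, and the day 12 values lay within a narrow band. Its log2 fold change was 2.56 ± 0.191 (SE, adjusted p = 1.23e-06, edgeR). Earlier it had kept a level of 559 ± 89.7 CPM at day 0, 659.9 ± 44.3 CPM at day 3 and 658 ± 134 CPM at day 9 (SD, n = 3 each). Per length, the authors' FPKM (counts scaled by the length of the model and the total of the library) put it at 3754 to 3974 at day 12 and at 489 to 809 at day 6, against 120 to 125 FPKM at day 12 and 1.20 to 3.61 FPKM at day 6 for Pbr009405.1.

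Pbr035163.1 lost the most CPM. It lies on the plus strand of scaffold671.0, from 150377 to 151197, with a coding length of 522 bases. It had 519, 530.1 and 447 CPM in day 12 replicates 1, 2 and 3, against 3416, 3031 and 3455 CPM in day 6 replicates 1, 2 and 3. The day 12 libraries were low and the groups did not overlap. The log2 fold change was -2.73 ± 0.151 (SE, adjusted p = 9.86e-08, edgeR). It stood at 3507 ± 337 CPM at day 0, 3347 ± 621 CPM at day 3 and 5227 ± 622 CPM at day 9 (SD, n = 3 each), so its highest level was that of day 9. In FPKM it was at 863 to 1009 at day 12 and at 5866 to 6594 at day 6.

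Pbr030521.1 had the largest log2 fall of the models that met the rule, and the fall was uneven across libraries. It lies on the minus strand of scaffold526.0, from 20152 to 21309, with a coding length of 756 bases. It had 1, 3 and 0 counts in day 12 replicates 1, 2 and 3, or 0.0657, 0.171 and 0 CPM, against 164, 393 and 7 counts in day 6 replicates 1, 2 and 3, or 12.6, 25.2 and 0.406 CPM. The groups did not overlap, but day 6 replicate 3 lay near the day 12 libraries. The log2 fold change was -7.19 ± 2.02 (SE, adjusted p = 0.022, edgeR). Its level was also uneven at day 0, at 134, 89.7 and 8.07 CPM in replicates 1, 2 and 3, and at day 9, at 0.373, 0.628 and 7.70 CPM. The call was lost without day 6 replicate 2 (adjusted p = 0.0736), day 12 replicate 1 (adjusted p = 0.074), day 12 replicate 2 (adjusted p = 0.0686) and day 12 replicate 3 (adjusted p = 0.0799), all by edgeR, while the log2 change stayed large in these fits, at -6.17, -7.10, -8.37 and -6.61. Where only day 6 and day 12 entered the fit, its counts were too low to be tested. The calls of Pbr009405.1, Pbr039060.1 and Pbr035163.1 held whichever of the 6 libraries was omitted.

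**Figure D2:**
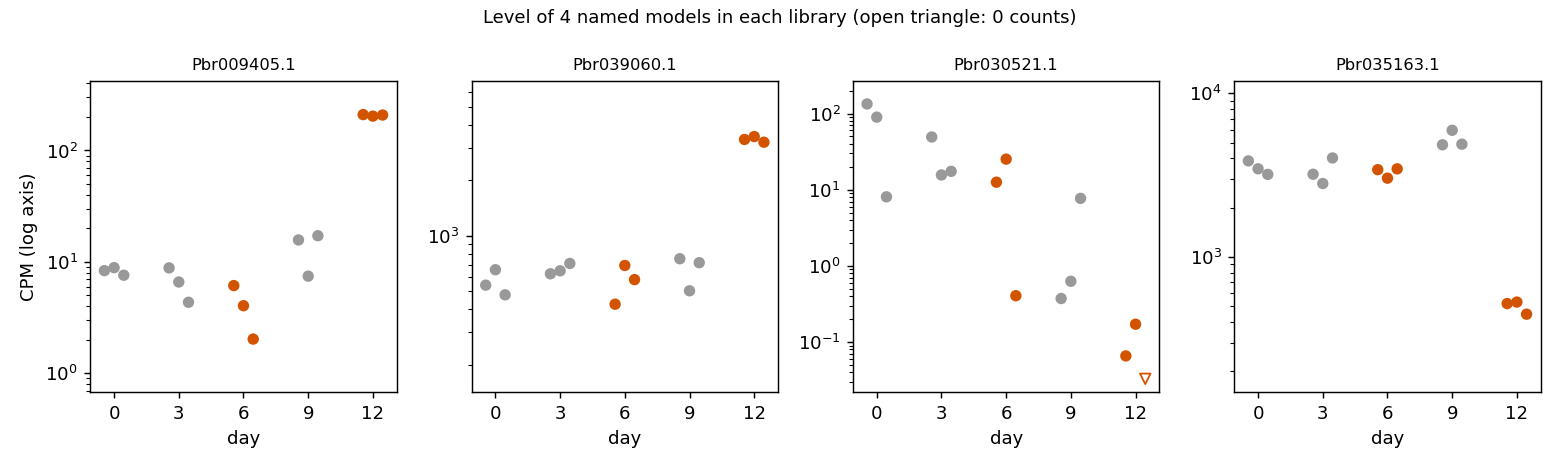
The level of 4 models is plotted by day (horizontal axis) in CPM on a log axis, with 1 point per library, orange for day 6 and day 12 and grey for the other days; the open triangle marks a library with 0 counts, drawn at an arbitrary low height. Pbr009405.1 and Pbr039060.1 were far higher at day 12 than on any other day. Pbr035163.1 was low at day 12 alone, and Pbr030521.1 was uneven on days 0, 6 and 9.

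The other models that led each list behaved in much the same way. Of 930 eligible rises, the 10 largest had log2 changes of 4.71 to 5.69, with means of 39.6 to 1051 CPM at day 12 and 1.40 to 28.8 CPM at day 6. In all 10, the day 12 libraries lay above the 12 others. The 10 largest gains in CPM reached 1051 to 3337 CPM at day 12, against 28.8 to 1275 CPM at day 6, and these 10 also lay above all other libraries. Of 1279 eligible falls, the 10 largest had log2 changes of -7.19 to -6.02, with means of 0.0790 to 2.57 CPM at day 12 and 12.7 to 219 CPM at day 6. In 8 of them the day 12 libraries were below the 12 others. The 10 largest losses in CPM left 78.9 to 1971 CPM at day 12, against 856 to 4145 CPM at day 6.

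Some models were counted on day 12 and not at all on day 6. In 22 of the 44681 models listed, each day 12 library had at least 10 counts and no day 6 library had any. Of these, 21 passed the filter on low counts, through their day 12 libraries, and were called higher. The 22 were chosen for this difference, so the calls give it no further support. The summed counts of the 22 models were 669, 681 and 748 in day 12 replicates 1, 2 and 3, against 0 in each day 6 library. On the other days their sums were 4, 5 and 9 counts at day 0, 8, 2 and 3 at day 3, and 6, 4 and 3 at day 9, in replicates 1, 2 and 3. No count was seen on day 0, 3 or 9 for 7 of the 22. Against a floor of 3 counts over the 3 day 6 libraries, they were at least 11.2-fold to at least 105-fold higher at day 12, bounds that cover counting error only. The largest bound belonged to a model on the minus strand of scaffold175.0, from 379299 to 379829, with 116, 121 and 110 counts in the day 12 libraries. A pair of neighbours on the plus strand of scaffold344.0, from 371269 to 372164 and from 374080 to 374753, were both in this set, with 28, 41 and 47 counts and with 24, 25 and 30 counts at day 12.

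The opposite was seen for 1 model, on the minus strand of scaffold174.0 from 434343 to 434996. It had 0 counts in each day 12 library, against 16, 37 and 45 counts in day 6 replicates 1, 2 and 3. It was at least 36.1-fold lower at day 12 (adjusted p = 0.0018, edgeR), a call that gives no further support, since the model was chosen by these counts. It had 26, 1 and 3 counts at day 0, 9, 12 and 11 at day 3, and 6, 6 and 5 at day 9.

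Neighbouring models changed together in 14 places, taken as runs of at least 4 tested models next to each other on a scaffold, each called in the same direction at 2-fold or more. Of these runs, 12 with 58 models were lower at day 12 and 2 with 8 models were higher, and 4 of the 14 held models of 1 strand alone. Tandem arrays of related genes are common in plant genomes, and models of equal length side by side may be copies that share reads, so the values of single models in such a run are uncertain. Runs were formed on this contrast, so their difference between day 12 and day 6 carries no further test. The number of runs depended on single libraries. When day 12 replicate 1, 2 or 3 was omitted, 7, 7 and 4 lower runs were found in place of 12. The 2 higher runs became 1 if day 12 replicate 1 was omitted, 4 if day 6 replicate 1 was, and 1 if day 6 replicate 2 was.

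The longest run lay on scaffold979.0, from 14361 to 64275, where 7 of 8 listed models were in the run and 6 of the 7 had a coding length of 480 bases. Their summed level was 361, 366 and 318 CPM in day 12 replicates 1, 2 and 3, against 913, 1064 and 918 CPM in day 6 replicates 1, 2 and 3. All day 12 sums were lower, and the log2 changes of the 7 models ran from -2.86 to -1.03. A second run with the same model length lay on scaffold188.0, from 372722 to 412885, where 8 models are listed and all 6 in the run had 480 bases. It summed to 183, 181 and 150.04 CPM in the day 12 libraries, against 535, 695 and 574 CPM in the day 6 libraries. Whether these 2 runs shared reads was not tested. Both runs had higher sums at day 6 than at day 9. At day 9 they stood at 567 to 663 CPM on scaffold979.0 and 347 to 444 CPM on scaffold188.0. Day 3 replicate 3, at 1295 CPM on scaffold979.0 and 799 CPM on scaffold188.0, lay above every day 6 library. Day 3 replicates 1 and 2 held 612 and 628 CPM on scaffold979.0 and 349 and 360 CPM on scaffold188.0. All models of both runs kept their direction whichever of the 6 libraries was omitted, but 4 to 6 of the 7 on scaffold979.0 and 4 to 6 of the 6 on scaffold188.0 stayed called.

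On scaffold46.0, from 811688 to 894051, 6 models on the minus strand were lower at day 12, 4 of them with a coding length of 1173 bases, in a span that lists 11 models. They summed to 315, 299 and 292 CPM in the day 12 libraries, against 1191, 580.3 and 802 CPM in the day 6 libraries. The day 6 libraries were spread, with replicate 1 highest, and all lay above day 12. All 6 models kept their direction whichever of the 6 libraries was omitted, and at least 4 of them stayed called. Without day 6 replicate 1, their log2 changes were -3.48 to -0.73. On scaffold389.0, from 350846 to 426635, 6 models of 633 to 660 bases on the minus strand summed to 94.2, 85.9 and 85.0 CPM at day 12, against 501, 681 and 605 CPM at day 6. Their day 9 sums of 535 to 644 CPM were as high as those of day 6, so the low level was seen at day 12 and not before, and day 0 had 225 to 310 CPM. On scaffold563.0, from 172066 to 221755, 5 models summed to 2.04, 2.23 and 0.889 CPM at day 12, against 16.2, 28.5 and 53.3 CPM at day 6. These day 12 sums lay below the 2.53 to 4.51 CPM of day 0.

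**Figure D3:**
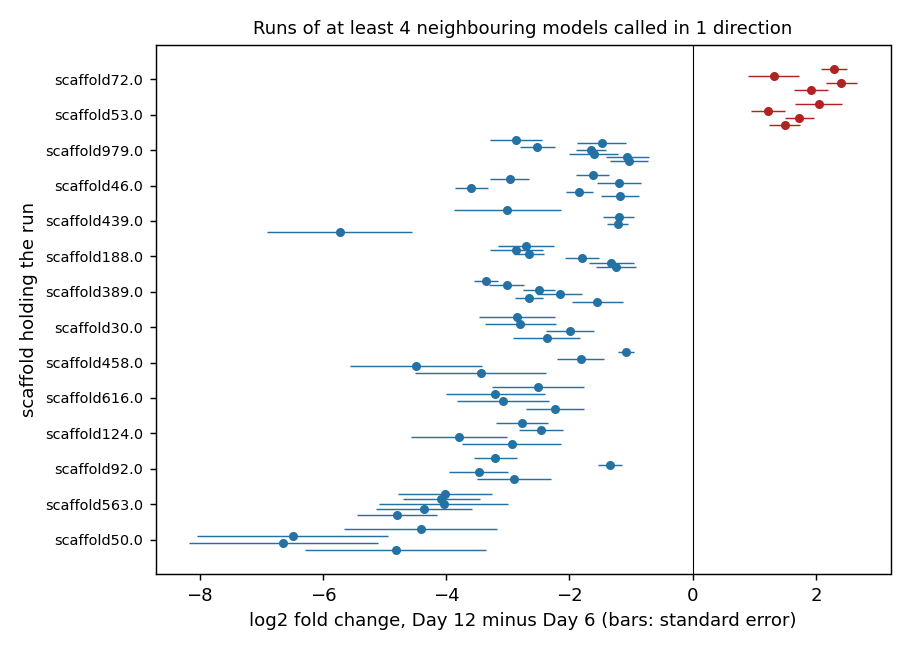
Each row is 1 of the 14 runs, named by its scaffold, and each point is 1 model of the run with its log2 fold change, day 12 minus day 6 (horizontal axis), and the standard error as a bar. The 12 lower runs are blue and the 2 higher runs red; the widest error bars belong to scaffold50.0.

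In a pair of runs the size of the fall rested largely on 1 library. On scaffold50.0, from 644254 to 665127, 4 models summed to 3.15, 2.85 and 1.89 CPM in the day 12 libraries, against 2.37, 7.06 and 223 CPM in day 6 replicates 1, 2 and 3. Without day 6 replicate 3, 1 of the 4 was called and their log2 changes were -2.89 to -0.211, against -6.64 to -4.41 with it. On scaffold616.0, from 50719 to 124951, 4 models on the plus strand summed to 119, 110.2 and 107 CPM at day 12, against 187, 238 and 2176 CPM in day 6 replicates 1, 2 and 3. Without replicate 3, 2 of the 4 were called, with log2 changes of -1.27 to -0.505. When only day 6 and day 12 were in the fit, none of the 4 models on scaffold616.0 was called, although their log2 changes were -3.21 to -2.26, and on scaffold50.0 a single model was tested, with a log2 change of -4.42, and was not called. Day 9 libraries held 371 to 638 CPM on scaffold616.0, above day 6 replicates 1 and 2 and below replicate 3.

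In the 2 runs that were higher at day 12, the day 12 and day 6 sums did not overlap. On scaffold72.0, from 553538 to 580670, 4 models summed to 86.3, 84.3 and 88.9 CPM in the day 12 libraries, against 19.1, 23.0 and 16.9 CPM in the day 6 libraries, and no other library of the course exceeded 31.2 CPM. On scaffold53.0, from 1075136 to 1085112, 4 models summed to 103, 100.8 and 91.8 CPM at day 12, against 36.1, 37.3 and 30.02 CPM at day 6, with 49.3 to 59.9 CPM at day 9. All 4 models on scaffold53.0 stayed called whichever of the 6 libraries was omitted. On scaffold72.0 all 4 stayed called in 1 of these 6 fits and 3 of the 4 in the others. Among the lower runs, all models on scaffold30.0 and scaffold92.0 stayed called in 6 of 6 such fits. Those on scaffold563.0 did so in 5 of 6, those on scaffold389.0 in 4 of 6, and those on scaffold124.0 and scaffold188.0 in 3 of 6. On scaffold50.0, scaffold616.0, scaffold439.0 and scaffold458.0 this held in 2 of 6. It held in 1 of 6 on scaffold46.0 and in 0 of 6 on scaffold979.0.

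**Figure D4:**
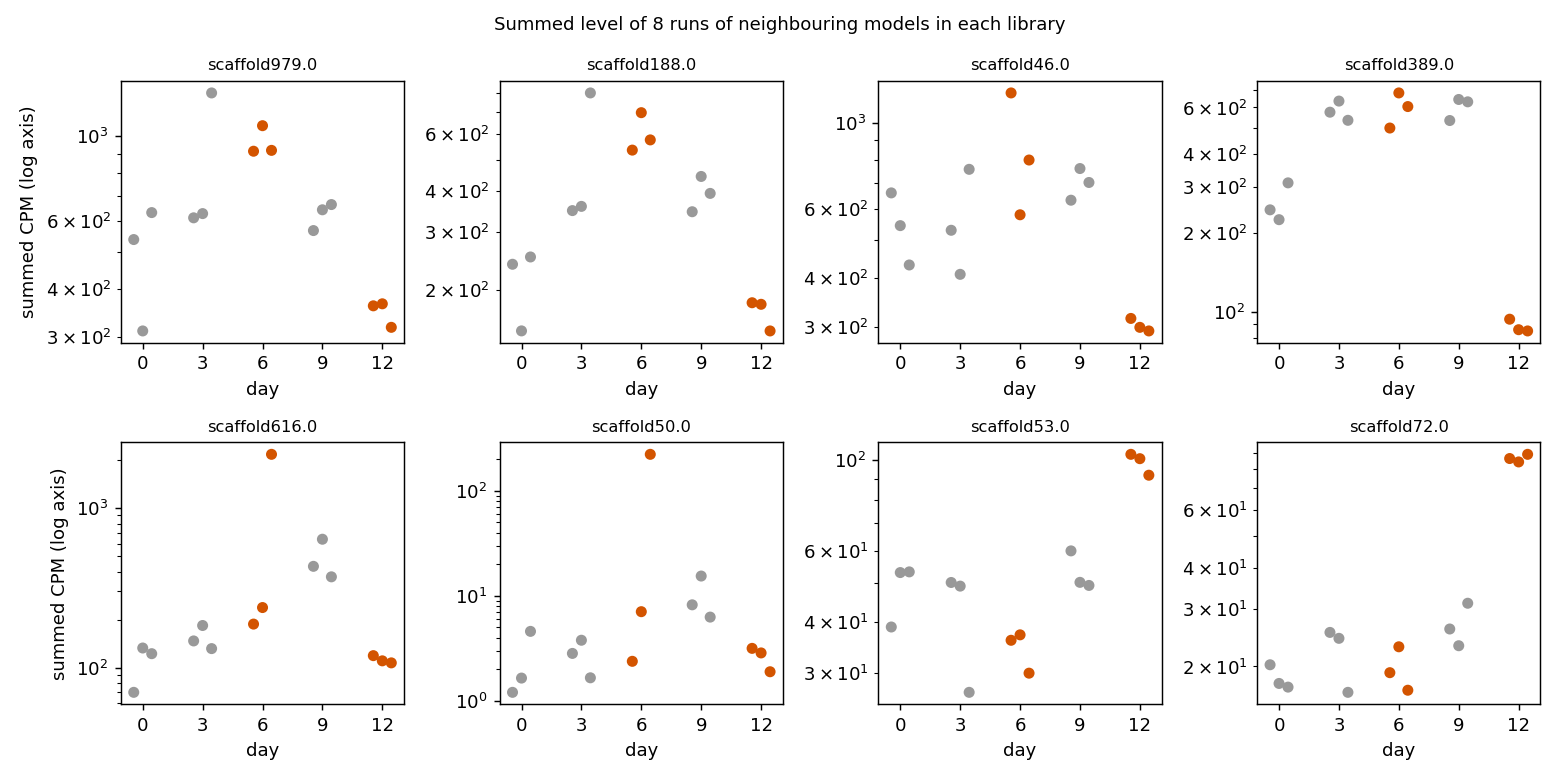
The summed CPM of 8 runs is plotted by day (horizontal axis) on a log axis, with 1 point per library, orange for day 6 and day 12 and grey for the other days. On scaffold616.0 and scaffold50.0 day 6 replicate 3 stands far above the other day 6 libraries, at 2176 and 223 CPM, while scaffold53.0 and scaffold72.0 were highest at day 12.

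Over all pairs of tested neighbours, changes in the same direction outnumbered opposite ones. Of 27662 adjacent pairs, both models were called at 2-fold or more in 567, of which 150 were both higher at day 12, 281 both lower and 136 opposite. The same direction was thus seen in 76.0% of them. This share was 78.3% of 341 such pairs on the same strand, 78.5% of 107 pairs facing apart and 67.2% of 119 pairs facing each other. The shares carry no test, and reads of overlapping models or near-identical copies could be counted for both members of a pair. Over all tested models, 1429 rose and 1790 fell at 2-fold or more. The share of the same direction among called models paired without regard to position was not computed.

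The structure of a model was loosely tied to its change. Of the 5496 tested models in 1 block, whose length equals their span and which therefore show no intron, 346 rose (6.30%) and 584 fell (10.6%) at 2-fold or more, against 4.90% and 6.14% over all tested models, with a median log2 change of -0.0880, or -0.0429 without day 6 replicate 3. Of the 1597 models that span more than 5 times their length, 41 rose (2.57%) and 54 fell (3.38%). Models without the Pbr prefix, 1694 of them tested, had 52 rises (3.07%) and 82 falls (4.84%), with a median log2 change of -0.0758, or -0.0264 without day 6 replicate 1. Among the 7322 models of the shortest 25%, up to 702 bases long, 392 rose (5.35%) and 576 fell (7.87%). Among the 7299 models of the longest 25%, from 1758 bases up, 251 rose (3.44%) and 294 fell (4.03%). The log2 change itself did not follow length across models, with a Spearman correlation of -0.00896 over 29134 models that share these libraries. Single day 12 libraries differed in this. Against the day 6 mean, the shortest 25% had medians of 0.0544, 0.0249 and -0.0499 in day 12 replicates 1, 2 and 3. The longest 25% had -0.0694, -0.0136 and 0.0586, below the shortest in replicates 1 and 2 and above them in replicate 3. Among the 10% of models with the lowest mean level, 303 rose (10.4%) and 191 fell (6.55%) at 2-fold or more. Among the 10% with the highest level, 88 rose (3.02%) and 164 fell (5.63%). A model of low mean level could pass the filter on low counts through 1 day alone, which may in part set its share of calls. No change under 2-fold was called among the lowest 10%, so the shares of these 2 groups are not a like comparison. These shares carry no test.

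The comparison also asked which models were back at their day 6 level by day 12 after a change at day 9. Against day 6, 4260 models (14.6%) were called at 2-fold or more at day 9, 2997 lower (10.3%) and 1263 higher (4.34%). The day 9 change moved with model length: 1536 of the 2997 lower models but 70 of the 1263 higher ones were among the longest 25%, and 495 and 716 were among the shortest 25%. With the trend of each library with length removed, 2949 models had moved at day 9, 2185 lower and 764 higher, and 1416 of them were back (48.0%). In that fit 52.2% of the models lower at day 9 and 36.0% of those higher were back. At day 12, 473 were called on the same side as at day 9 and 82 on the other side. The matching share over all tested models was not computed for that fit. The values below keep the length trend, and the part of length in them was not tested further. A model was counted as back when the 95% interval of its log2 change, day 12 minus day 6, lay wholly within 2-fold, since an adjusted p over the threshold does not show a return. By this rule 2211 of the 4260 were back (51.9%), and 137 of these still differed from day 6 by a called change of under 2-fold. Over all tested models the interval lay within 2-fold in 57.3%, and over models that had not moved at day 9 in 58.2%. Both contrasts use the day 6 libraries.

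Models that had been lower at day 9 were back in 1742 of 2997 cases (58.1%). Their median log2 difference from the day 6 mean was -1.36, -1.48 and -1.48 in day 9 replicates 1, 2 and 3 and -0.139, -0.0109 and 0.0945 in day 12 replicates 1, 2 and 3. Outside that interval, 302 (10.1%) were called lower at day 12 as well, with a median log2 change of -1.73, and 78 (2.60%) were called higher, with a median of 1.18. Over all tested models, 8.20% were called lower and 6.93% called higher with an interval not within 2-fold. The other 875 (29.2%) were neither within the interval nor called, and their median level was low, at a mean log2 CPM of 0.659 against 3.53 for those that were back.

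Models that had been higher at day 9 were back in 469 of 1263 cases (37.1%). Their median log2 difference from the day 6 mean was 1.09, 1.24 and 1.16 in the day 9 libraries and 0.160, 0.114 and 0.000216 in the day 12 libraries. Outside the interval, 295 (23.4%) were still called higher at day 12, with a median log2 change of 1.59, and 45 (3.56%) were called lower, with a median of -1.58, beside the 6.93% and 8.20% of all tested models. The remaining 454 (35.9%) were neither. The difference between the 2 directions was not tested. Without day 6 replicate 1, the number of models on the same side at day 12 as at day 9 was 1079, against 597 with all libraries.

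**Figure D5:**
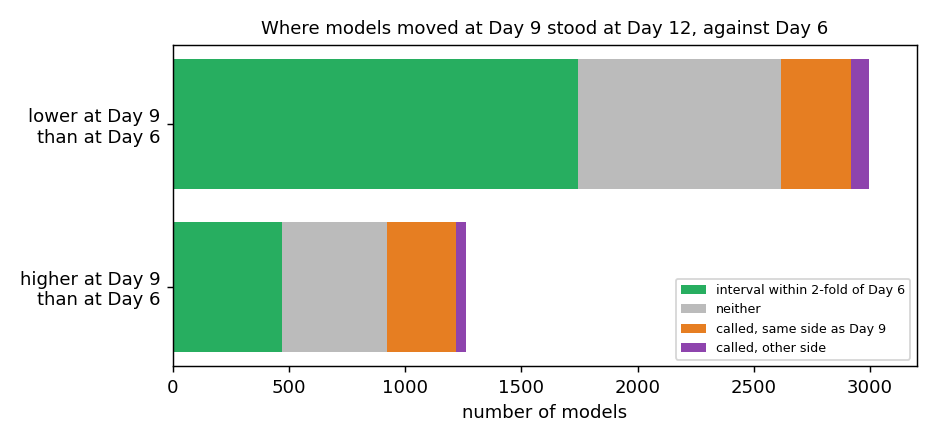
Each bar counts the models called at 2-fold or more at day 9 against day 6 (horizontal axis: number of models), split by where they stood at day 12 against day 6. Of the 2997 models lower at day 9, 1742 had an interval within 2-fold of day 6, and of the 1263 models higher at day 9, 469 did.

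How often a return was seen differed with expression, and so did the share of all models with an interval within 2-fold. In the 10% of models with the highest level, 152 of 183 models lower at day 9 (83.1%) and 49 of 83 higher at day 9 (59.0%) were back, where the interval was within 2-fold for 80.8% of all models of that level. In the 10% with the lowest level these were 17 of 350 (4.86%) and 5 of 165 (3.03%), where 2.40% of all such models had so narrow an interval, so at this depth a return was not detectable for most of them. Among models lower at day 9, 1054 of 1536 of the longest 25% were back (68.6%) and 214 of 495 of the shortest 25% (43.2%). Among models higher at day 9 the order was the other way, with 21 of 70 of the longest back (30.0%) and 284 of 716 of the shortest (39.7%). The interval lay within 2-fold for 65.8% of all of the longest models and 49.3% of all of the shortest. With a margin of 1.5-fold, 989 of the 4260 models were back, or 23.2%.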

How the data were processed

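The authors deposited 1 table for the series, with a read count and an FPKM value per gene model and library. Per the file headers, the deposited counts are raw read counts, and their values are whole numbers. The FPKM values are the authors' scaling of counts by model length and library total, per the file headers. The reference was the genome of *Pyrus bretschneideri*, another pear, according to the series' design text. HISAT is the tool named, per the submitters' processing notes. Its version, the build, the counting program and any use of strand were not given in the sources used here. Coordinates are those of the table. Reads of near-identical or overlapping models may have been shared.

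Counts were tested with edgeR 4.0.16 in R 4.3.3: filterByExpr with the 5 days as groups (29134 of 44681 models), trimmed mean of M-values (TMM) scaling, glmQLFit over all 15 libraries with 10 residual degrees of freedom, and glmQLFTest for day 12 minus day 6 and day 9 minus day 6. P-values were adjusted by Benjamini-Hochberg over all tested models and called under 0.05. The SE is the log2 fold change over the square root of F. CPM are TMM-scaled, and log2 CPM used a prior count of 2. In the count of changes resting on 1 day 6 library, 0.1 CPM was added to both means. On simulated counts for day 12 minus day 6 over 29134 models, 47 of 100 models changed 2-fold and 80 of 100 changed 4-fold were recovered. Of 133 called models, 6 had not been changed. Of 100 models lowered 4-fold at day 9 alone, 73 were called as moved, and 66 of these were counted as back. Each simulated model had 1 spread for all days, whereas the data had a median SD of 0.301 at day 6 and 0.133 at day 12. Few models were changed, whereas 21.4% were called in the data. The simulation therefore cannot show the error rate or the recovery under the wider spread of day 6.

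The IDs named have, per direction, the largest log2 change and the largest CPM difference among models called at 2-fold or more whose mean log2 CPM was 1 or more, with no overlap of libraries. The comparison, its groups of models and its tests were chosen with earlier results of these data known. Lists by gene function and tissue markers needed gene descriptions and were not tested. DESeq2 1.42.0, other scaling and filters, a replicate block, removal of length trends and leaving out libraries were tried as alternatives.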

Additional observations from a re-analysis of the deposited data

How the results depend on the processing

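Directions held for all 4 named models under each alternative that could fit them, and no alternative ended a call of Pbr009405.1, Pbr039060.1 or Pbr035163.1. edgeR with DESeq2's size factors called 6195 models, DESeq2 7144, no filter on low counts 5948, at least 1 CPM in 3 libraries 6161, and the length trend removed 6384; of the 6228 models, 98.4%, 99.1%, 92.2%, 98.0% and 98.2% stayed called. With only day 6 and day 12 in the fit, 3798 models were called, 1926 higher and 1872 lower, with 155 without the Pbr prefix, 902 in 1 block, 900 of the shortest and 799 of the longest 25%, 280 of the lowest and 547 of the highest 10% in level, and 132 that span over 5 times their length. The samples in the fit also set which models were tested. Leaving out 1 day 6 or day 12 library gave 4191 to 7045 calls, 2151 to 3344 higher and 2031 to 3701 lower. The groups had 161 to 266 calls without the prefix, 941 to 1542 in 1 block, 1009 to 1647 and 881 to 1609 among the shortest and longest, 320 to 512 and 606 to 932 among the lowest and highest in level, and 147 to 252 of wide span. Lower runs numbered 4 to 14 and higher runs 1 to 4 with a library left out, 38 and 25 for runs of at least 3 models and 5 and 0 for at least 5.

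Leaving out 1 library, also of day 9, which was added after the data were seen, left 1928 to 2337 models back at the day 6 level and 403 to 1079 on the same side as at day 9. With the length trend removed, 2949 models had moved at day 9 (764 higher), or 2812 (745 higher) with the replicate block added. The number back was 1416 with the length trend removed, 1399 with the block added to that, and 989 with a margin of 1.5-fold. With a minimum of 5 counts, 51 models were counted at day 12 alone and 3 at day 6 alone, and with 20 counts 10 and 0; for the other differences the cause was not tested.

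Same-numbered libraries of day 12 and day 6 did not deviate together, with correlations of 0.00572, -0.00494 and -0.00119 for replicates 1, 2 and 3 across models. Values this small show no pairing by number. They cannot exclude that libraries of the same number shared a culture or a batch, on which the labels are silent. A replicate block called 5911 models. Low counts limit the weakly expressed models, and the spread of the day 6 libraries limits all of the comparison.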
